A study of Mus musculus with 6 samples.

Results

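The respiratory chain subunit genes were 72 of the 19936 genes measured in 3 mouse endothelial cell lines. They are the genes whose symbol starts with Nduf or Uqcr, the 4 succinate dehydrogenase genes Sdha, Sdhb, Sdhc and Sdhd, and those whose symbol starts with Cox4, Cox5, Cox6, Cox7 or Cox8. They were read from 84 probe sets that carry a single gene symbol, with the brightest probe set standing for each of the 11 genes that have several. The 72 genes comprise 6 core and 28 accessory subunits of complex I, 7 complex I assembly factors that share the Nduf name, 4 genes of complex II, 8 of complex III, 11 of complex IV and 8 tissue-specific or oxygen-regulated isoforms. Probe sets shared with a second gene were left out, so Cox7c and Ndufb4 are not among them. The prefixes also leave out Cyc1 and Cycs, described with the other mitochondrial lists.

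All 3 lines were endothelial cells derived from mouse embryonic stem cells, and the labels distinguish them by cadherin, the adhesion protein of cell junctions. The N line expresses N-cadherin, the VE line VE-cadherin, and the VE+N line both, per the labels. All lines were handled alike: 50000 cells were seeded per square centimetre in medium with 20% serum, grown for 72 h and then kept without serum, in 1% albumin, for 18 to 20 h. RNA from 2 extractions per line was hybridised to Affymetrix Mouse Gene 1.0 ST arrays, 1 array each, 6 in all. The array titles call the pair biological replicates, but nothing in the labels says that the extractions came from separate cultures, so p-values measure the spread between these extracts, which may be technical. Each cadherin state is represented by a single line, so cadherin and any other property of that line cannot be told apart.

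The respiratory chain passes electrons from NADH through complex I, or from succinate through complex II, to ubiquinone, then through complex III and cytochrome c to complex IV, which reduces oxygen. Complexes I, III and IV pump protons across the inner mitochondrial membrane as they do so, and ATP synthase uses the gradient. The subunits described here are encoded in the nucleus and assembled with others encoded in mitochondrial DNA. Endothelial cells are known to draw much of their ATP from glycolysis while still using the chain for biosynthesis and signalling.

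Signals are log2 values, so a difference of 1 is a doubling, and a gene was called where limma's adjusted p was below 0.05 after Benjamini-Hochberg adjustment over all 19936 genes. As a check of the labels, Cdh2, which encodes N-cadherin, had a mean of 7.67 in the line labelled N, 6.69 in that labelled VE+N and 5.86 in that labelled VE, and all 3 differences passed (adjusted p = 0.0003154 for VE+N minus N, 1.872e-05 for VE minus N and 0.001548 for VE+N minus VE). Cdh5, which encodes VE-cadherin, had means of 7.28 (labelled N), 6.94 (labelled VE) and 7.10 (labelled VE+N), and no difference passed (adjusted p = 0.09169 for VE minus N). That probe set did not follow the labels, so every direction given here rests on the labels, and N, VE and VE+N stand for the line labelled so. All 12 endothelial markers were above the range of sensory receptor genes described next, and 2 of the 6 pluripotency markers were. Array medians over all probe sets lay between 4.85 and 4.91.

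As a reference for low signal, 95% of the 1194 olfactory and vomeronasal receptor genes averaged below 4.2 log2 units. In at least 1 line 71 of the 72 respiratory chain genes were above that value. The exception was Cox7b2, a testis isoform, which lay between 2.45 and 2.65 on the 6 arrays, and the gene just above was Cox6b2, also a testis isoform, at 4.22 to 4.81. The median signal of the 72 genes was 8.31 and 8.27 on the N-labelled arrays, 8.34 and 8.19 on the VE-labelled arrays, and 8.32 and 8.13 on the VE+N-labelled arrays. The medians of the lines overlapped. In bulk RNA, fewer cells of a kind and less RNA per cell cannot be told apart.

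Most respiratory chain genes did not pass the test in any comparison: 62 of 72 were called in none, 10 in at least 1 and 2, Ndufa8 and Cox4i1, in all 3. Between the VE-labelled and N-labelled lines 6 members were called, 5 higher and 1 lower in VE, which is 8.33% of members against 15.4% of all genes (8.46% higher and 6.99% lower). Between VE+N and N 8 were called, 6 higher and 2 lower in VE+N, 11.1% of members against 19.1% of all genes (10.2% higher and 8.91% lower). Between VE+N and VE 3 were called, all higher in VE+N, 4.17% of members against 10.1% of all genes (4.29% higher and 5.84% lower). The members' share was thus below the background in each comparison, which was not tested. N is shared by the first and second comparison, VE by the first and the last, and VE+N by the second and the last.

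The differences among members were small and centred close to 0. The median difference was -0.041 in VE minus N (-0.021 over all genes), -0.024 in VE+N minus N (-0.004 over all genes) and 0.015 in VE+N minus VE (0.029 over all genes). The SD of the differences over members was 0.225, 0.296 and 0.188 in the same order, against 0.461, 0.521 and 0.387 over all genes. A single member, Ndufa8, differed by more than 2-fold in any comparison. For all 66, 64 and 69 members not called in the 3 comparisons the 95% interval of the difference lay within 2-fold, and for 57, 52 and 64 of them within 1.5-fold.

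The counts of called members were mostly lower when 1 array was left out, which also leaves less information on the spread. A lost call thus does not show that it rested on the array left out. Without VE replicate 1 no member was called in VE minus N by limma (11 had an unadjusted p below 0.05), and the count was 2, 1 and 2 without N replicate 1, N replicate 2 and VE replicate 2. In VE+N minus N it was 2 (Ndufa8 and Cox4i1) without either N array, and in VE+N minus VE it was 1 (Ndufa8) without any 1 of the 6 arrays.

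**Figure D1:**
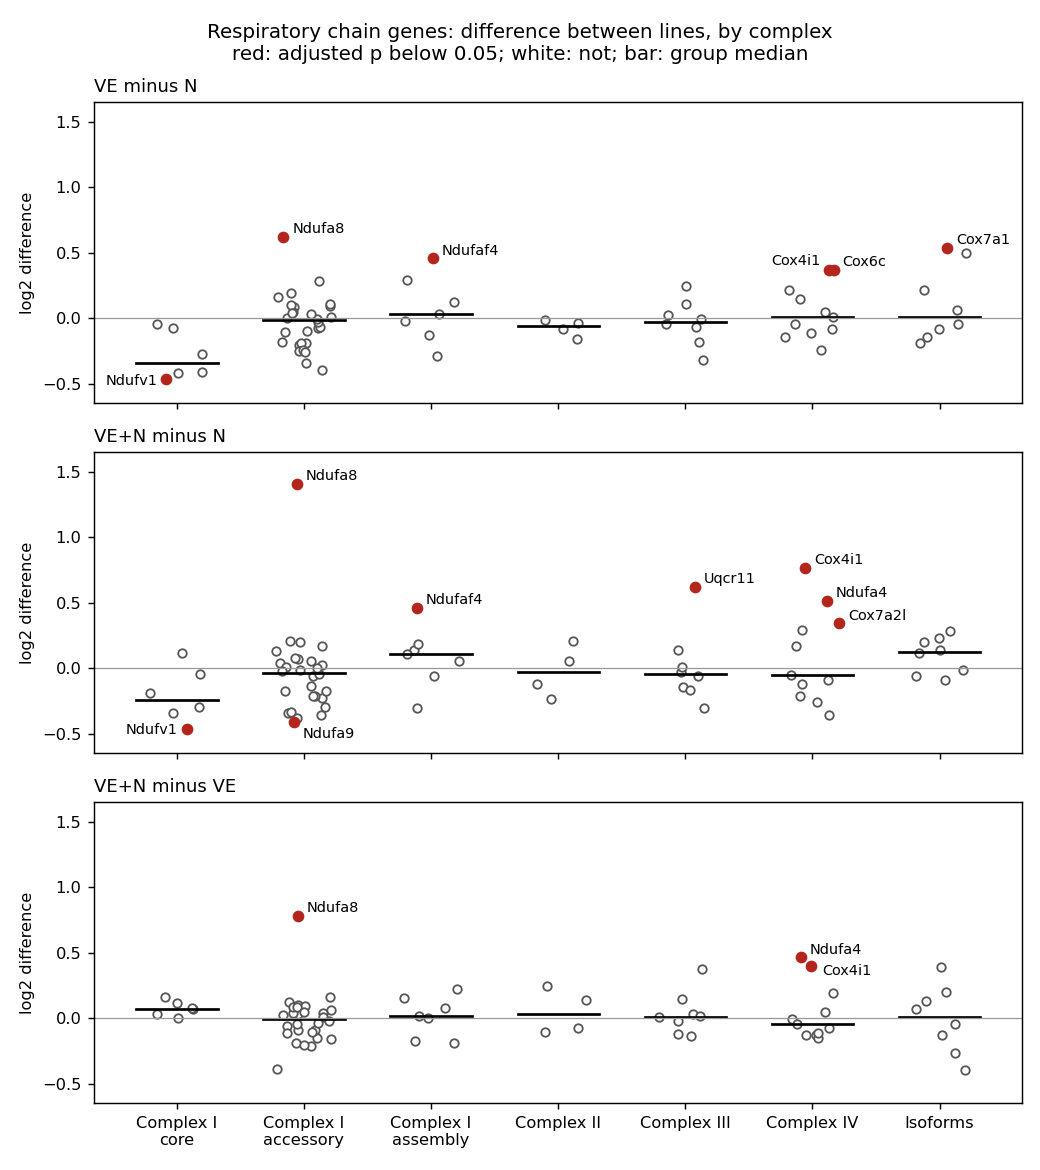
Difference in log2 signal between the labelled lines (vertical axis) for each of the 72 genes, grouped by complex (horizontal axis), with 1 panel for each comparison. Red points were called at adjusted p below 0.05, white points were not, and the bar is the group median. Most genes lie close to 0, and Ndufa8 at 1.41 in VE+N minus N lies farthest from it.

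The 6 core subunits of complex I, which hold the flavin and iron-sulphur centres, had lower mean signals in the VE-labelled line than in the N-labelled line, with a median difference of -0.34, but only Ndufv1 passed. Without VE replicate 2 that median was -0.19 and Ndufs7 was no longer lower, in a check added after the data were seen. Ndufv1 carries the flavin that accepts electrons from NADH. Its log2 signal was 9.26 and 9.26 on the N-labelled arrays, 8.76 and 8.83 on the VE-labelled arrays and 8.80 and 8.80 on the VE+N-labelled arrays. Both N values stood above the other 4 values, which lay between 8.76 and 8.83. The difference was -0.47 ± 0.0953 (SE; limma adjusted p = 0.01336) in VE minus N and -0.46 ± 0.0953 (adjusted p = 0.01152) in VE+N minus N, and 0.00 in VE+N minus VE (adjusted p = 0.9898). The VE minus N call was lost without any 1 of the N and VE arrays (N replicates 1 and 2, then VE replicates 1 and 2: adjusted p = 0.09409, 0.09308, 0.09368 and 0.05844), and the VE+N minus N call without either N replicate (0.08152 and 0.07862).

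The other core subunits did not pass. The share of the 6 called was thus 16.7% in both comparisons with N, beside 15.4% (VE) and 19.1% (VE+N) of all genes. Ndufs3 differed by -0.41 in VE minus N (adjusted p = 0.05424) and -0.34 in VE+N minus N (0.09042), with its N arrays at 10.04 and 10.08 above its VE arrays at 9.78 and 9.51. Ndufs1, the large iron-sulphur subunit, differed by -0.42 in VE minus N (adjusted p = 0.1049). Ndufs7, Ndufs8 and Ndufv2 differed by -0.05, -0.27 and -0.08 in VE minus N. In VE+N minus N the core median was -0.25, with Ndufs7 alone above 0 at 0.12, and it ran from -0.31 to -0.16 without 1 array (-0.31 and -0.16 without N replicate 1 and 2). Between VE+N and VE the 6 core subunits differed by 0.003 to 0.167 (3 of 6 above 0 without VE replicate 2) and none passed by limma (0 also at an unadjusted p below 0.05).

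Of the 28 accessory subunits of complex I, Ndufa8 was called in every comparison and Ndufa9 in 1. Those calls were 3.57%, 7.14% and 3.57% of the group in the order of comparisons above, beside 15.4%, 19.1% and 10.1% of all genes. The other 26 were called in none, and the group medians were -0.016, -0.033 and -0.002 in the order of comparisons given above. The first became 0.047 without VE replicate 2 and -0.112 without VE replicate 1, the second 0.086 without VE+N replicate 2 and -0.124 without VE+N replicate 1, and the last ran from -0.135 to 0.077 (without VE+N replicate 1 and VE replicate 1). Differences other than those of Ndufa8 and Ndufa9 ran from -0.40 (Ndufa1, VE minus N, adjusted p = 0.06881) to 0.28 (Ndufv3, VE minus N, adjusted p = 0.1274).

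Ndufa8, an accessory subunit on the intermembrane side of complex I, showed the largest difference among the 72 genes. Its log2 signal was 9.50 and 9.49 on the N-labelled arrays, 10.20 and 10.03 on the VE-labelled arrays and 10.95 and 10.85 on the VE+N-labelled arrays. The 3 lines did not overlap, with N lowest and VE+N highest, and the gaps between lines were wider than the gaps within them. The difference was 0.62 ± 0.106 in VE minus N (adjusted p = 0.005504), 1.41 ± 0.106 in VE+N minus N (adjusted p = 6.05e-05, 2.66-fold) and 0.79 ± 0.106 in VE+N minus VE (adjusted p = 0.002695). Under 16 other analyses both calls of VE+N against another line remained in all 16, and the VE minus N call was lost in 1, without VE replicate 1 (0.54, adjusted p = 0.05215).

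Several genes beside Ndufa8 on chromosome 2 differed in the same direction. The 6 measured genes on each side, in the gene order of RefSeq GRCm38.p6, were examined after Ndufa8's values were seen. Of these 12, 3 were called in the direction of Ndufa8 in VE minus N, 5 in VE+N minus N and 3 in VE+N minus VE, and none in the opposite direction, where 8.46%, 10.2% and 4.29% of all genes were called higher. Lhx6, a homeobox transcription factor 2 genes away, had log2 signals of 6.47 and 6.32 in N, 7.48 and 7.39 in VE and 8.60 and 8.69 in VE+N. Its order of lines was that of Ndufa8 and its differences were 1.04, 2.25 and 1.20. Rbm18 and Mrrf, the latter a mitochondrial ribosome recycling factor, differed by 0.93 and 0.81 in VE+N minus N and by 0.62 and 0.56 in VE+N minus VE, and these 4 differences passed.

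The 2 genes directly next to Ndufa8 did not pass. Morn5 lay at 3.66 to 3.90 and Gm10829 at 4.47 to 4.75 on the 6 arrays. Beyond Gm10829, Ttll11 differed by 0.52 in VE minus N and 0.86 in VE+N minus N, and Stom, at the far end, by 0.84 and 0.88, all called. Dab2ip, between them, was not called in any comparison (-0.09, -0.01 and 0.08). Called and uncalled genes were interspersed along this stretch.

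**Figure D2:**
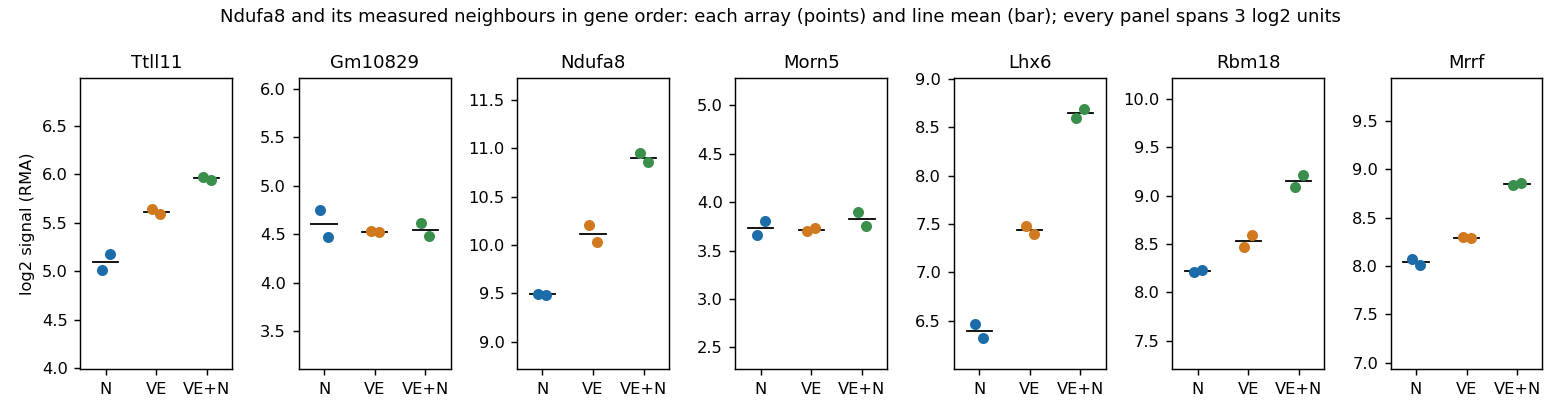
Log2 signal (vertical axis, every panel spanning 3 units) on each array of the labelled lines (horizontal axis) for Ndufa8 and 6 measured genes near it in gene order, with points for arrays and bars for the mean of 2. Ttll11, Lhx6, Rbm18 and Mrrf are highest in VE+N, as is Ndufa8, while the lines differ little in Gm10829 and Morn5, directly beside it.

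The 250 bases upstream of the Ndufa8 start are shown because Morn5 is read from the opposite strand there and its own upstream window overlaps them. The sequence is from RefSeq GRCm38.p6, chr2:36049339-36049588, minus strand, and capitals mark the 134 bases shared with the upstream window of Morn5 (chr2:36049223-36049472, plus strand).
Ndufa8: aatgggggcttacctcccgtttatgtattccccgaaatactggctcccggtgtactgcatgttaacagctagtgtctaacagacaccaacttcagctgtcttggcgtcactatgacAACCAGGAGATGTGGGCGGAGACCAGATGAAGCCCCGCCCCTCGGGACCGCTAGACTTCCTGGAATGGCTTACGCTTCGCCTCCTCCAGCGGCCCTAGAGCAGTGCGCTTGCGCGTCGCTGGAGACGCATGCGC
The signal of Ndufa8 differed between lines while that of Morn5 stayed under the receptor reference of 4.2 on every array. None of the 5 motifs searched was in the 250 bases before to 50 after this start, which says only that those letters are not in the window.

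Ndufa9, an accessory subunit near the junction of the matrix and membrane arms, was lower in VE+N than in N. Its log2 signal was 9.04 and 9.08 in N, 8.85 and 8.77 in VE, and 8.57 and 8.74 in VE+N. The N arrays stood above all others and the VE and VE+N arrays did not overlap. The difference was -0.41 ± 0.105 in VE+N minus N (adjusted p = 0.0292), and -0.25 in VE minus N (adjusted p = 0.172) did not pass. The call was lost without either N array, either VE array or VE+N replicate 1 (adjusted p = 0.124, 0.1583, 0.05416, 0.05416 and 0.0881).

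Of the 7 assembly factors, Ndufaf4, which acts in the early assembly of complex I, was higher in both VE-cadherin-labelled lines than in N. Its log2 signal was 6.34 and 6.40 in N, 6.80 and 6.86 in VE, and 6.73 and 6.94 in VE+N. The VE and VE+N arrays interleaved, and the N arrays lay below all of them. The difference was 0.46 ± 0.108 in VE minus N (adjusted p = 0.02561) and 0.46 ± 0.108 in VE+N minus N (adjusted p = 0.02047). The first call was lost without any 1 of the N and VE arrays (N replicates 1 and 2, then VE replicates 1 and 2: adjusted p = 0.1547, 0.1037, 0.1016 and 0.1423), and the second without N replicate 1, N replicate 2 or VE+N replicate 2 (0.1302, 0.0851 and 0.07833). The other 6 were not called in any comparison, with differences from -0.30 (Ndufaf5, VE+N minus N) to 0.30 (Ndufaf6, VE minus N, adjusted p = 0.07989). Of the 7 assembly factors 14.3% were called in each comparison with N, beside 15.4% (VE) and 19.1% (VE+N) of all genes.

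Complex II is succinate dehydrogenase, shared with the tricarboxylic acid cycle, and none of its 4 genes was called in any comparison by limma (at an unadjusted p below 0.05 there were 0, 1 and 0 in the order of comparisons above). Of all genes 15.4%, 19.1% and 10.1% were called in that order. Sdha, the flavoprotein, had log2 signals of 9.49 and 9.51 in N, 9.42 and 9.51 in VE, and 9.61 and 9.81 in VE+N. The VE+N arrays of Sdha stood above the others, by a difference of 0.24 from VE that did not pass (adjusted p = 0.225). Sdhb, the iron-sulphur subunit, lay at 8.04 and 8.11 in N, 8.11 and 7.88 in VE, and 8.24 and 8.03 in VE+N, and its lines overlapped. Sdhc, a membrane anchor, lay at 9.93 and 9.94 in N, 9.94 and 9.90 in VE, and 9.89 and 9.74 in VE+N. Sdhd, the other anchor, lay at 7.60 and 7.67 in N, 7.51 and 7.45 in VE, and 7.44 and 7.36 in VE+N. The Sdhd lines did not overlap, with N highest, but the difference of -0.24 in VE+N minus N did not pass (adjusted p = 0.1462).

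Of the 8 genes of complex III, Uqcr11 was called in VE+N minus N and the others in no comparison. That is 12.5% of the group in VE+N minus N, beside 19.1% of all genes. Uqcr11 encodes a small subunit of the complex. Its log2 signal was 7.05 and 7.01 in N, 7.45 and 7.09 in VE, and 7.77 and 7.52 in VE+N. The VE+N arrays stood above all others, and the VE arrays were spread between N and VE+N. The difference was 0.62 ± 0.145 in VE+N minus N (adjusted p = 0.01982), 0.24 in VE minus N (adjusted p = 0.3496) and 0.38 in VE+N minus VE (adjusted p = 0.164). The call was lost without N replicate 1, N replicate 2 or VE+N replicate 1 (adjusted p = 0.07546, 0.09138 and 0.09421). A second probe set of Uqcr11 gave 0.63 in VE+N minus N and was not called.

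Uqcrc2, a core protein of complex III, was close to the threshold in both comparisons with N. Its arrays read 10.66 and 10.66 in N, 10.32 and 10.36 in VE, and 10.33 and 10.38 in VE+N. The N arrays stood above the other 4, by differences of -0.32 in VE minus N (adjusted p = 0.05846) and -0.30 in VE+N minus N (adjusted p = 0.06198). The remaining 6 genes, Uqcrc1, Uqcrfs1, Uqcrb, Uqcrq, Uqcrh and Uqcr10, differed by -0.18 to 0.15 over the 3 comparisons.

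Complex IV held 4 of the 10 called genes: of its 11 genes 2 were higher in VE than in N, 3 higher in VE+N than in N and 2 higher in VE+N than in VE, and none was called lower. That is 18.2%, 27.3% and 18.2% of the group, beside 15.4%, 19.1% and 10.1% of all genes. The 8 isoforms, almost all with Cox names, were counted apart, and of these 12.5%, 0.0% and 0.0% were called. The complex IV shares thus depend on that split, and counting the groups together would lower them. Cox4i1, the widely expressed isoform of subunit 4, was called in every comparison. Its log2 signal was 9.20 and 9.27 in N, 9.65 and 9.55 in VE, and 10.06 and 9.95 in VE+N. The 3 lines did not overlap and stood in the same order as for Ndufa8. The difference was 0.37 ± 0.102 in VE minus N (adjusted p = 0.04881), 0.77 ± 0.102 in VE+N minus N (adjusted p = 0.001291, 1.70-fold) and 0.40 ± 0.102 in VE+N minus VE (adjusted p = 0.04534). The VE+N minus N call remained in all 16 other analyses. The VE minus N call was lost without any 1 of the N and VE arrays (N replicates 1 and 2, then VE replicates 1 and 2: adjusted p = 0.2589, 0.1637, 0.2292 and 0.1205) or after median centring (0.08226). The VE+N minus VE call was lost without any 1 of the 6 arrays (adjusted p = 0.08831 without N replicate 1, 0.08831 without N replicate 2, 0.1246 without VE replicate 1, 0.2297 without VE replicate 2, 0.1073 without VE+N replicate 1 and 0.07564 without VE+N replicate 2), and also with array weights (0.07524) or a further quantile normalization (0.08334).

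Emc8, a gene of the endoplasmic reticulum membrane complex directly next to Cox4i1 in the same gene order, was examined after its values were seen. It lay at 6.81 and 6.76 in N, 7.21 and 7.30 in VE, and 7.63 and 7.67 in VE+N. Its lines stood in the order of Cox4i1 without overlap, with differences of 0.47, 0.86 and 0.40 that all passed (adjusted p = 0.01409, 0.0005266 and 0.03989). On the other side Irf8, an interferon regulatory factor, differed in the opposite direction, by -0.74 in VE minus N and -0.78 in VE+N minus N, and both passed. Of the 12 nearest measured genes 4 were called in the direction of Cox4i1 in VE+N minus N and 1 in the opposite direction, beside 10.2% and 8.91% of all genes. Other called members had called neighbours too: in VE+N minus N these were 4 in the member's direction and 1 opposite for Uqcr11, 3 and 1 for Ndufv1, 3 and 0 for Ndufa4, 3 and 0 for Cox7a2l, 1 and 0 for Ndufaf4, and 0 and 2 for Ndufa9.

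Ndufa4, named for complex I but a subunit of complex IV, was higher in VE+N than in both other lines. Its log2 signal was 10.16 and 10.09 in N, 10.27 and 10.09 in VE, and 10.70 and 10.59 in VE+N. The N and VE arrays overlapped and both VE+N arrays lay above them. The difference was 0.52 ± 0.109 in VE+N minus N (adjusted p = 0.01261) and 0.47 ± 0.109 in VE+N minus VE (adjusted p = 0.03305), against 0.05 in VE minus N (adjusted p = 0.8337). The first call was lost without N replicate 1, N replicate 2 or VE+N replicate 1 (adjusted p = 0.05803, 0.09026 and 0.05019), and the second without any 1 array (0.06185 without either N array, 0.0728 and 0.2023 without VE replicate 1 and 2, and 0.09465 and 0.06892 without VE+N replicate 1 and 2), with array weights (0.05706) or after a further quantile normalization (0.05938).

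Cox7a2l, which joins complexes III and IV in supercomplexes, was higher in VE+N than in N. It lay at 9.20 and 9.21 in N, 9.41 and 9.30 in VE, and 9.57 and 9.53 in VE+N. The lines did not overlap, and the difference of 0.34 ± 0.0976 in VE+N minus N passed narrowly (adjusted p = 0.04398). It was lost without any 1 of the 6 arrays (adjusted p = 0.203 and 0.1908 without N replicate 1 and 2, 0.06748 without either VE array, and 0.09487 and 0.08034 without VE+N replicate 1 and 2), with array weights (0.05527), after median centring (0.07716) or with the mean of its probe sets (0.07959). A second probe set of Cox7a2l gave 0.29 and was not called.

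Cox6c, a small structural subunit of complex IV, was higher in VE than in N. It lay at 10.04 and 10.14 in N, 10.47 and 10.45 in VE, and 10.44 and 10.33 in VE+N. Both lines labelled with VE-cadherin stood above N. The difference was 0.37 ± 0.0998 in VE minus N (adjusted p = 0.04283), while 0.30 in VE+N minus N did not pass (adjusted p = 0.08256). The call was lost without any 1 of the N and VE arrays (N replicates 1 and 2, then VE replicates 1 and 2: adjusted p = 0.2593, 0.1348, 0.1731 and 0.1549) or after median centring (0.07091). The second probe set of Cox6c gave 0.33 in VE minus N and was not called.

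The other 7 complex IV genes, Cox5a, Cox5b, Cox6a1, Cox6b1, Cox7a2, Cox7b and Cox8a, were called in no comparison. Cox8a, the widely expressed subunit 8, came closest, with a difference of -0.36 in VE+N minus N (adjusted p = 0.0552). Cox5a and Cox5b, subunits of the complex's outer shell, differed by at most 0.21 in any comparison. Cox4i1 and Ndufa4 were thus higher in VE+N than in VE while Cox5a, Cox6a1 and Cox6b1 differed there by -0.01, -0.13 and -0.13, without passing.

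**Figure D3:**
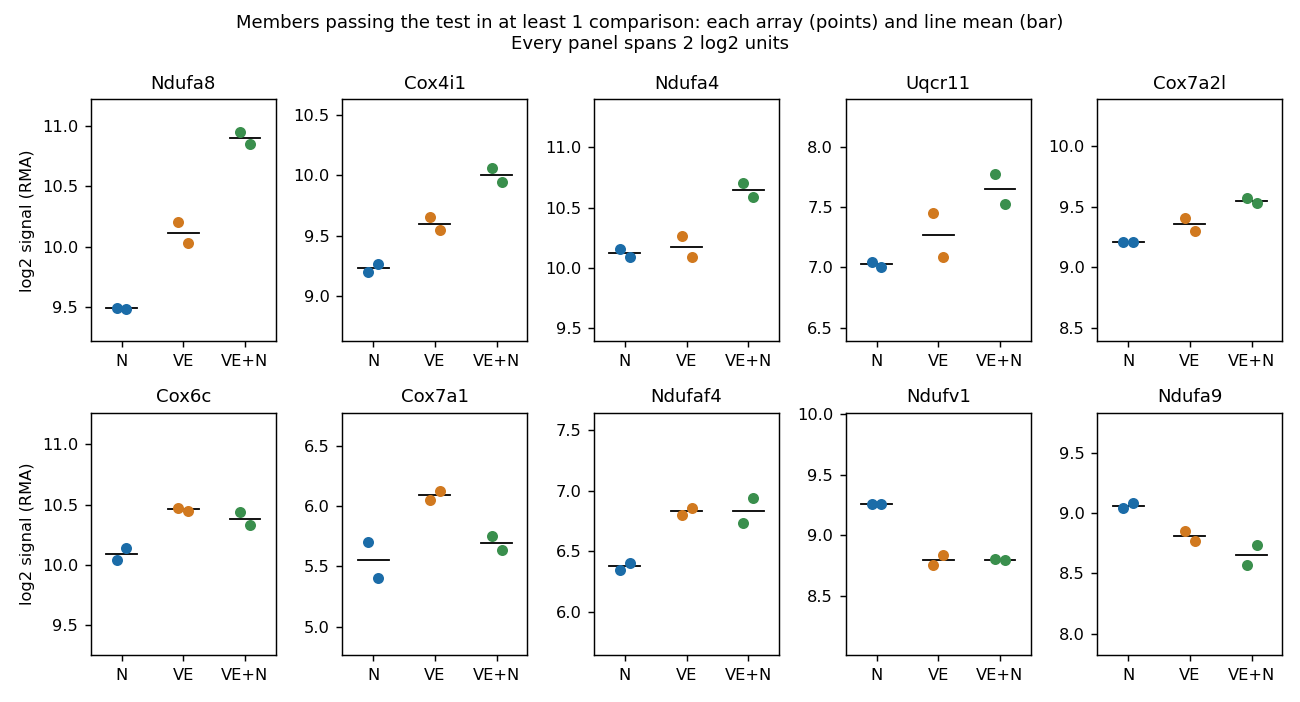
Log2 signal (vertical axis) on each array of the 3 labelled lines (horizontal axis) for the 10 genes called in at least 1 comparison, 1 panel a gene. Points are arrays and bars the mean of 2. Ndufa8 and Cox4i1 step up from N through VE to VE+N, and Ndufv1 is high in N alone.

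Among the 8 isoforms, Cox7a1, the heart and skeletal muscle form of subunit 7a, was the single gene called. Its log2 signal was 5.70 and 5.41 in N, 6.05 and 6.13 in VE, and 5.75 and 5.64 in VE+N. The VE arrays stood above the others, and N and VE+N overlapped. The difference was 0.54 ± 0.123 in VE minus N (adjusted p = 0.02264), and -0.40 in VE+N minus VE did not pass (adjusted p = 0.0911). The call was lost without N replicate 2, VE replicate 1 or VE replicate 2 (adjusted p = 0.1709, 0.09311 and 0.1378) or after a further quantile normalization (0.0576). Of 18 cardiac and skeletal muscle markers, 12 were above the receptor reference, their mean signal was 4.68 to 4.73 in N, 4.57 to 4.62 in VE and 4.41 to 4.58 in VE+N, and 1, the troponin Tnnt2, was called higher in VE than in N. In VE minus N 5.56% of this list was called, and 12.5% of the 8 isoforms, against 15.4% of all genes. The part of these muscle markers in the result was not tested.

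Cox8b, another muscle form, lay at 7.39 and 7.46 in N, 8.17 and 7.67 in VE, and 7.75 and 7.56 in VE+N. VE replicate 1 stood above the other 5 arrays. The difference of 0.50 ± 0.165 in VE minus N did not pass (adjusted p = 0.08761), and it passed without VE replicate 2 (0.75, adjusted p = 0.02523). Cox6a2, the muscle form of subunit 6a, lay at 5.62 to 5.92 over the 6 arrays with overlapping lines.

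The isoforms known to be regulated by oxygen did not pass in any comparison. Cox4i2, which replaces Cox4i1 in lung and under low oxygen, lay at 4.98 and 5.04 in N, 4.97 and 4.96 in VE, and 5.07 and 4.77 in VE+N. Ndufa4l2, a target of the hypoxia-inducible factors, lay at 4.89 and 4.90 in N, 4.81 and 4.80 in VE, and 4.97 and 5.05 in VE+N. The differences of Cox4i2 ran from -0.09 to -0.04 and those of Ndufa4l2 from -0.08 to 0.20. Both genes lay below the median signal of all genes on every array (5.47 to 5.59), not far above the receptor reference of 4.2. The testis forms Cox6b2, Cox7b2 and Cox8c were not called either, and Cox8c lay at 5.00 and 4.91 in N, 4.86 and 4.67 in VE, and 5.31 and 4.99 in VE+N. Of 11 spermatogenic markers 2 were above the receptor reference, with a mean signal between 3.07 and 3.13 over all arrays.

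**Figure D4:**
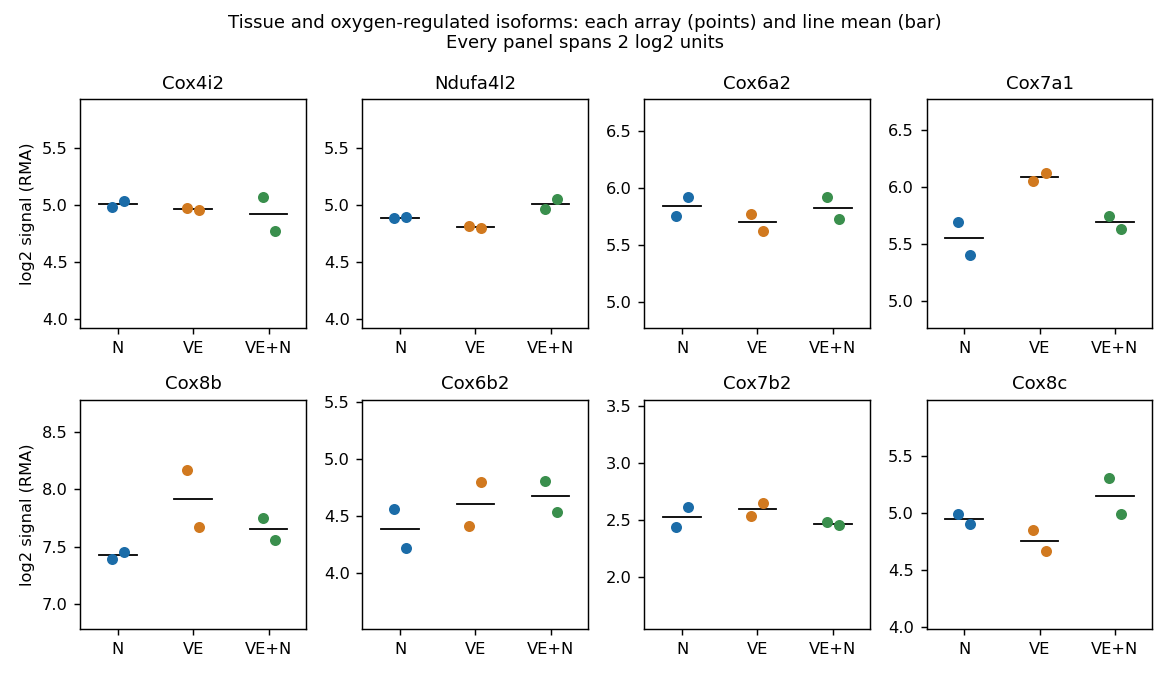
Log2 signal (vertical axis) on each array of the 3 labelled lines (horizontal axis) for the 8 tissue-specific or oxygen-regulated isoforms. Points are arrays and bars the mean of 2. Cox7a1 is higher in VE than in N, and Cox7b2 lies at 2.45 to 2.65 throughout.

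Where a gene had several probe sets these mostly gave like values. Over the 11 such genes the sign differed between probe sets for Ndufa11 in both comparisons with N, and for Ndufb11 and Ndufc1 in VE minus N, where no probe set was called. The 3 probe sets of Uqcrb stayed within 0.018 of each other in each comparison. The probe sets of Uqcr11 spread most, by 0.228 in VE minus N.

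Promoters of respiratory chain genes are known for sites of NRF1, GABP, YY1 and the oestrogen-related receptors. RefSeq GRCm38.p6 promoter sequence, 250 bases before to 50 after the start, was matched for 58 of the 72 genes, and exact letters were searched on both strands. The NRF1 motif, the 10 letters in capitals in the Ndufaf4 sequence, was in 5 of 58 (8.62%, against 1.61% of 15614 measured genes with a promoter): Cox6a1, Ndufa11, Ndufaf4, Ndufaf5 and Uqcrc1. The GABP letters CCGGAAG were in 12 (20.7% against 13.6%), the YY1 letters AAGATGGC in 7 (12.1% against 3.77%) and the cyclic AMP element TGACGTCA in 4 (6.9% against 2.72%). The oestrogen-related receptor letters TCAAGGTCA were in 1, Sdhd (1.72% against 0.346%). A match is a description of the letters and not of binding.

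The upstream sequence of 3 called members, 250 bases each, shows a member with NRF1 letters, one with GABP letters and one with none of the 5 motifs. They are Ndufaf4 (chr4:24897833-24898082, plus strand), Uqcr11 (chr10:80406822-80407071, minus strand) and Ndufv1 (chr19:4012756-4013005, minus strand), from RefSeq GRCm38.p6. Capitals mark the NRF1 letters, which read the same on both strands, in Ndufaf4 and the GABP letters in Uqcr11.
Ndufaf4: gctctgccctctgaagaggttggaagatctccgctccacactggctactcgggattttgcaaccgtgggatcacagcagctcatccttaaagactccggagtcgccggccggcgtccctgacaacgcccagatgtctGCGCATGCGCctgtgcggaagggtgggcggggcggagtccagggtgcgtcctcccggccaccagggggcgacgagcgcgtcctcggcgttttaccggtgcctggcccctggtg
Uqcr11: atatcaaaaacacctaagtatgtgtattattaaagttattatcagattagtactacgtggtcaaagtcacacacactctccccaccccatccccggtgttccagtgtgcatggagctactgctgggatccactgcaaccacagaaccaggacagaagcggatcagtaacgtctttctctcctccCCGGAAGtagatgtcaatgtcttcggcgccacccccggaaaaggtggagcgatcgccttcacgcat
Ndufv1: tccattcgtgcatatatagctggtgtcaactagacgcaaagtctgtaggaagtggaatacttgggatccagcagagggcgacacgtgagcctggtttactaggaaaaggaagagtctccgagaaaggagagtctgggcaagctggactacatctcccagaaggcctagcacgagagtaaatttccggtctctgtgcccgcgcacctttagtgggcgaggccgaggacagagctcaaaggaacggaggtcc
Ndufaf4 and Uqcr11 were called higher and Ndufv1 lower in VE+N than in N. Of the other genes with NRF1 letters, Cox6a1, Ndufa11, Ndufaf5 and Uqcrc1 were called in no comparison.

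The partners of the chain outside the name rule were mostly not called either. Cyc1, the cytochrome c1 subunit of complex III, and Cycs, the cytochrome c that carries electrons on to complex IV, were with Cyct, Slc25a4 and Slc25a5 called in no comparison by limma (0, 1 and 1 had an unadjusted p below 0.05). Of 17 ATP synthase genes 1 was higher and 1 lower than in N in both VE and VE+N, and 0 were called in VE+N minus VE by limma (0 also at an unadjusted p below 0.05). These were Atp5d, a subunit of the catalytic head, with differences of 0.52 and 0.62, and Atp5md, a small membrane subunit, with -0.63 and -0.41. In both comparisons with N 11.8% of the ATP synthase genes were called, against 15.4% (VE) and 19.1% (VE+N) of all genes. In VE+N minus VE the share of all genes was 10.1%. The 13 genes encoded in mitochondrial DNA were not analysed here.

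Of 39 assembly factors outside the name rule 2 were higher and 1 lower in VE minus N, 2 higher and 4 lower in VE+N minus N, and 1 lower in VE+N minus VE, which is 7.69%, 15.4% and 2.56% of the list against 15.4%, 19.1% and 10.1% of all genes. Cox17, the copper chaperone of complex IV, differed most, by -0.89 in VE minus N (adjusted p = 0.001073) and -0.89 in VE+N minus N (adjusted p = 0.000804). Cox17 lay at 8.10 and 8.01 in N, 7.26 and 7.06 in VE, and 7.15 and 7.16 in VE+N. It was lower in the lines where Cox4i1 was higher. Cmc2, which acts in complex IV assembly, differed by 0.76 and 0.47 in the same comparisons. Cox18, which inserts a mitochondrially encoded subunit, differed by -0.54 in VE+N minus N. Higd1a, a protein of the chain induced by low oxygen, differed by 0.60 in VE minus N and -0.55 in VE+N minus VE.

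Among 21 regulators of mitochondrial gene expression, 4 were higher in VE minus N, 4 higher and 1 lower in VE+N minus N, and 1 higher and 2 lower in VE+N minus VE. These shares, 19.0%, 23.8% and 14.3%, were near those of all genes (15.4%, 19.1% and 10.1%). Ppargc1a, the coactivator PGC-1 alpha, differed by 0.56 in VE minus N (adjusted p = 0.03054) and -0.82 in VE+N minus VE (adjusted p = 0.008057), at signals of 3.30 to 4.30 that straddle the receptor reference. Tfam, the mitochondrial transcription factor, differed by 0.35 and 0.55 from N in VE and VE+N, and Gabpb1, a subunit of GABP, by 0.38 and 0.53. Gabpa, its partner, was higher in VE+N than in N by 0.40 and than in VE by 0.45. Myc, a broad activator of growth genes, differed by 0.45 in VE minus N, -0.92 in VE+N minus N and -1.37 in VE+N minus VE.

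The enzymes that feed the chain held called genes in both directions. Of 21 genes of the tricarboxylic acid cycle and pyruvate dehydrogenase, 3 were higher and 2 lower in VE minus N, 2 higher and 1 lower in VE+N minus N, and 1 lower in VE+N minus VE. The shares were 23.8%, 14.3% and 4.76%, on either side of the 15.4%, 19.1% and 10.1% of all genes. Pcx, pyruvate carboxylase, differed by 0.70 and 0.83 from N in VE and VE+N, Fh1, fumarase, by -0.39 and -0.52, and Idh2 by 0.51 in VE minus N and -0.45 in VE+N minus VE. Of 14 genes that regulate pyruvate entry or respond to low oxygen, 7 were higher in VE minus N (median 0.60), 4 higher and 4 lower in VE+N minus N, and 8 lower in VE+N minus VE (median -0.42). In VE minus N 7 of the 14 were thus called, a larger share than the 15.4% of all genes. In both comparisons with VE+N 57.1% of the list was called, against 19.1% and 10.1% of all genes. Vegfa, the endothelial growth factor, differed by 1.24 in VE minus N, and Pdk3, a kinase that inhibits pyruvate dehydrogenase, by 1.11 and 0.95 from N in VE and VE+N. Ndufa4l2 and Cox4i2, the members known to respond to low oxygen, were not called in these comparisons, at signals below the median of all genes.

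Proliferation markers moved with the VE-labelled line: all 11 were higher in VE than in N (median 0.86) and all 11 lower in VE+N than in VE (median -1.09), with a mean signal of 7.78 to 7.82 in N, 8.81 to 8.82 in VE and 7.61 to 7.77 in VE+N. Of 9 fibroblast and mesenchymal markers, 8 above the receptor reference, 7 were higher and 1 lower in VE than in N, and their mean was 5.57 to 5.62 in N, 6.99 to 7.01 in VE and 4.46 to 4.59 in VE+N. Cox7a1, whose VE arrays stood above the others, had the same line highest as these markers, while Ndufa8 and Cox4i1 were highest in VE+N. Of the 12 endothelial markers 4 were higher in VE+N than in VE (Eng by 0.57, Erg by 0.48, Kdr by 0.48 and Esam by 0.42), 4 higher and 1 lower in VE+N than in N, and 1 higher and 3 lower in VE than in N, and their mean was 10.44 to 10.45 in N, 10.29 to 10.34 in VE and 10.55 to 10.67 in VE+N. Of the proliferation, fibroblast and endothelial lists, 100.0%, 88.9% and 33.3% were called in VE minus N, against 15.4% of all genes. The same shares were called in VE+N minus VE, against 10.1% of all genes. In VE+N minus N they were 18.2%, 44.4% and 41.7%, against 19.1% of all genes. The part of these markers in the members' results was not tested.

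In VE and VE+N, but not in N, most respiratory chain genes were lower on the second array. For VE, 59 of 72 members were lower on replicate 2 than on replicate 1, with a median of -0.138, against 50.6% of all genes and a median of -0.002. For VE+N 59 of 72 were lower too, with a median of -0.128, against 50.4% of all genes. For N 32 of 72 were lower, with a median of 0.005. The shifts in VE and VE+N were larger than the median differences between lines over all 72 members.

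All 11 complex IV genes were lower on replicate 2 in VE as well as in VE+N, as were 26 and 24 of the 28 accessory subunits of complex I. ATP synthase genes showed the same, with 15 and 14 of 17 lower. Genes of the tricarboxylic acid cycle did not, with medians of 0.088 and 0.105, nor did the 4603 other genes within the interquartile range of the members' signal, of which 53.6% and 36.8% were lower. Some lists outside the chain shifted down too: the 6 pluripotency markers, 2 above the receptor reference, had medians of -0.13 in VE and -0.261 in VE+N. Fibroblast markers had 0.08 and -0.223, proliferation markers -0.011 and -0.127, and endothelial markers -0.055 and 0.136. Without VE+N replicate 2 the median difference of members in VE+N minus N was 0.075 in place of -0.024, and without VE+N replicate 1 it was -0.092. In VE minus N the median was 0.029 without VE replicate 2 and -0.108 without VE replicate 1, so its sign turned with the array used.

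**Figure D5:**
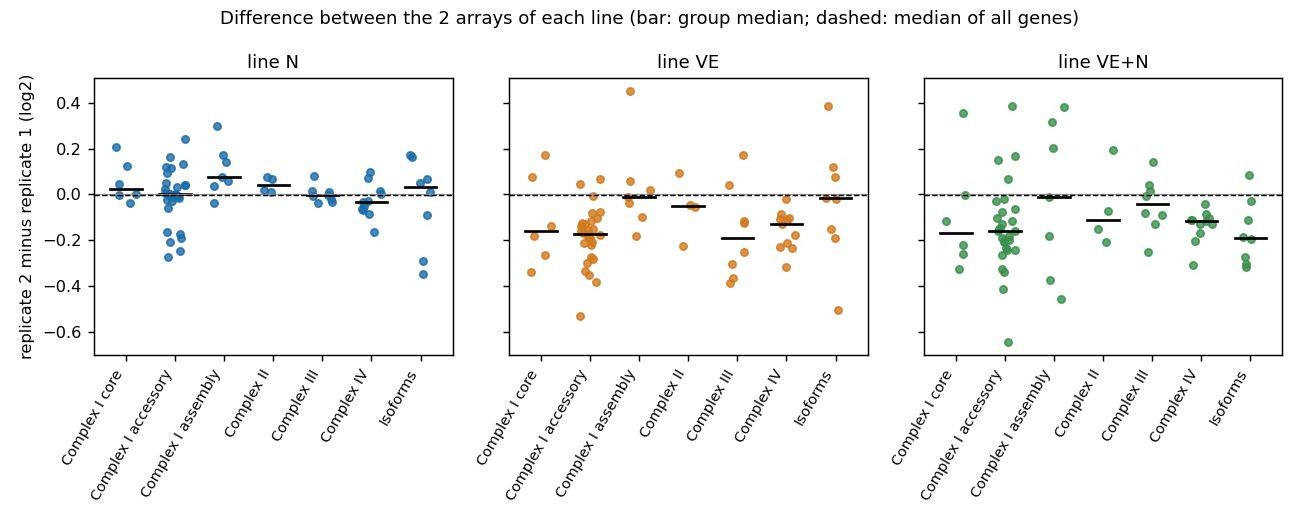
Replicate 2 minus replicate 1 in log2 signal (vertical axis) for each of the 72 respiratory chain genes, by complex (horizontal axis), with 1 panel for each labelled line. Bars are group medians and the dashed line is the median of all genes. In VE and VE+N all 11 complex IV genes lie below 0, while in N the groups lie around it.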

How the data were processed

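The authors deposited log2 values that come from RMA (background correction, quantile normalization and a summary per probe set) as run in Partek 6.3, per the submitters' processing notes. No source states the scale; log2 was inferred from the values, which fit no linear unit. The genome build is not given in the sources used here. Per the series' design text, the authors used analysis of variance, with p of 0.05 and a fold above 2, for their own calls.

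Among the 35556 probe sets, 1 gene symbol was given for 21789, several for 1621 and none for 12146. Symbols were updated through Entrez identifiers (21698) or accessions (3), or kept as annotated (88), and 19936 genes resulted, none removed for low signal. Each line has 2 arrays, which limits the precision.

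The lines were compared in limma 3.58.1 (R 4.3.3) by a fit of line means to all 6 arrays. Variances were moderated, with 3 degrees of freedom from residuals and 4.89 from the prior. The figure after ± is a standard error of the log2 difference. P-values were adjusted by Benjamini-Hochberg over all genes within each comparison. The procedure was tested on simulated data.

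The members and lists were chosen with earlier results of these data known. Named with values are the called members, all complex II genes, all isoforms, up to 3 called genes of each outside list in a comparison, members beside the receptor reference, and Cdh2 and Cdh5. The other core subunits, Uqcrc2, Cox8a, genes quoted as the ends of a range, neighbouring genes and Cyc1, Cycs and Gabpa were named after their values were seen. RefSeq GRCm38.p6 was used for gene order, and its promoter table for sequences. Alternatives were other samples in the fit, weights, priors, normalizations, filters, probe set rules, gene sets and tests, and leaving out each array.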

Additional observations from a re-analysis of the deposited data

How the results depend on the processing

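The number of called respiratory chain genes moved with the processing, while no call turned its sign: over the alternatives, 926 of the named genes' values kept their side of the threshold, 72 lost a call, 4 gained one and 0 reversed. Most of the 926 belonged to genes and comparisons that were not called at first. All 72 losses fell on called ones by definition, since only a call can be lost. For VE minus N, 6 genes were called. The count was 10 with array weights, 11 with a trended and robust variance prior, 10 without the dimmest 25% of genes and 10 with only genes above the receptor range. By the methods' analysis of variance at a fold over 2 it was 0, both before and after Benjamini-Hochberg adjustment. Leaving out 1 array at a time gave 0 to 6. For VE+N minus N, 8 genes were called, with 16 under the trended and robust prior, 1 (Ndufa8) by the methods' analysis of variance before and after adjustment, and 2 to 6 without 1 array. For VE+N minus VE, 3 genes were called, with 1 when only the 4 arrays compared were fitted, 1 with array weights, 1 after a further quantile normalization, 0 by the methods' analysis of variance before and after adjustment, and 1 without any 1 array. Only Ndufa8 differed by more than 2-fold, in VE+N minus N, so no other member could pass the analysis of variance. Its count of 0 in the other comparisons was thus fixed by the fold cut. The median difference in VE+N minus N was -0.024, and ran from -0.092 to 0.075 without 1 array. Leaving out an array removes a sample and assumes that the lone array varies like the others. It also leaves less information on the spread, so a lost call need not rest on the array left out. Where that array's line is not compared, the fit equals that of only the 4 arrays compared. Those alternatives are therefore not separate from each other. The cause of the other changes was not tested.

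Median centring of each array called 7 genes in VE minus N, 3 higher and 4 lower, beside 5 higher and 1 lower as deposited. In VE+N minus N it called 9, 5 higher and 4 lower, beside 6 higher and 2 lower, and in VE+N minus VE 3, all higher. A further quantile normalization gave 4 higher and 2 lower in VE minus N.

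Over all genes, same-numbered replicates deviated together weakly or not at all (r across genes of -0.005 for N with VE, 0.123 for N with VE+N and 0.069 for VE with VE+N). Of the 72 members, 59 were lower on replicate 2 in VE and 59 in VE+N, but 32 in N. Whether the numbers pair the arrays cannot be told from these values. With the replicate block 5, 9 and 2 genes were called in the 3 comparisons, and the calls of Cox4i1 in VE minus N and VE+N minus VE (adjusted p = 0.05955 and 0.05652), Cox6c (0.05674) and Cox7a2l (0.05244) were lost.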

Other observations

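Probe sets that match 2 genes each, and so stood outside the 72 genes, were read as values. Of the 3 probe sets shared by Cox7c, a small subunit of complex IV, and Gm12338, none was called in any comparison. Those 3 probe sets differed by -0.17 to -0.16 in VE minus N, -0.26 to -0.24 in VE+N minus N and -0.10 to -0.08 in VE+N minus VE. The 2 probe sets shared by Ndufb4, an accessory subunit of complex I, and Ndufb4b differed by 0.12 to 0.13, 0.20 to 0.25 and 0.07 to 0.13, and neither was called. The probe set shared by Ndufs5 and Ndufs5-ps lay between 6.10 and 6.20 on the 6 arrays.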
